A study of Bos taurus with 18 samples.

Results

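The genes described here are the 7 that encode the chains of the collagens characteristic of cartilage, COL2A1, COL9A1, COL9A2, COL9A3, COL10A1, COL11A1 and COL11A2. They were taken by symbol from the 16989 genes counted in each library, and all 7 were found, each with at least 1 read in some library. The RNA came from bovine mesenchymal stem cells (MSCs), the adherent marrow cells that can be driven to form cartilage, bone or fat. The animals of the study were juvenile cows, and all libraries here came from the marrow of 1 donor. There were 17 clones, A to Q, each grown from a single cell and sequenced once, and 1 heterogeneous population, the uncloned cells of that donor, also sequenced once. All were grown on tissue culture plastic in DMEM with FBS and antibiotics, and RNA was taken without chondrogenic induction, before the remaining cells were formed into pellets with TGFβ. The labels name no treatment, so the question the design asks of these genes is how far they differed between clones of one marrow before differentiation, and whether they differed together. Each clone is a single culture, so that p-values over clones measure the spread between clones and include any variation from culture and library preparation.

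Type II collagen, 3 identical chains from COL2A1, is the main fibril of cartilage. Type XI collagen joins chains of COL11A1 and COL11A2 with a chain made from COL2A1 and lies in the core of that fibril, where it limits its width. Type IX collagen, a trimer of the COL9A1, COL9A2 and COL9A3 chains, sits on the fibril surface and links it to other matrix. Type X collagen, from COL10A1, forms a network around hypertrophic chondrocytes of the growth plate. Types IX and XI are each trimers of different chains, so the mRNAs of those chains are described beside one another. In these cells, MSCs in monolayer, type I collagen is the usual main product. Of the members, COL11A1 was well counted here without induction, at 1682 to 6884 CPM in the clones.

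Reads on genes numbered 11484812 to 18458157 per clone (median 14193790) and 16092501 in the heterogeneous population, so that 1 read was worth 0.0542 to 0.0871 CPM (reads of a gene scaled to a common total of reads on genes, as counts per 1000000) in the clones and 3 reads, the limit that a count of 0 allows, 0.163 to 0.261 CPM. Intervals below are exact Poisson 95% intervals and cover counting error only. Levels are compared between libraries within a gene, never between genes, since transcript lengths were not used. Clones C and O resembled each other far more than any other pair, with a chi-square per degree of freedom of 4.95 over genes against 22.5 for the next pair (E and F) and a median of 123 over 136 pairs. They still differed beyond counting error and were kept as 2 clones. No clone was sequenced again, so the difference expected within a clone is not known. The labels do not say whether C and O arose from the same cell. The main slope and correlation results of the members are also given with their reads summed as 1 clone or with both left out. Standard deviations, nearest genes and the sizes of the steepest slopes are given over all clones only. The 10 listed MSC markers summed to 2751 to 5163 CPM in the clones and 3160 in the heterogeneous population. ITGB1 was the largest part, at 1497 to 3013 CPM in the clones, while ENG, NT5E, THY1 and CD44 had medians of 182.4 to 351.4 CPM. Of that list 2 markers, LEPR and VCAM1, had at most 2 and 47 reads in a clone. Of 18 cartilage matrix genes other than collagens, 4 were close to absent, since no clone had more than 8 reads of MATN1, 2 of EPYC, 3 of LECT1 or 1 of UCMA, while others of that list were well counted, with 311 to 41761 reads of ACAN, 78 to 1818 of HAPLN1 and 51 to 1052 of MIA in a clone. In bulk RNA, fewer cells expressing a gene and less RNA of it per cell cannot be told apart.

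COL2A1, which encodes the type II collagen chain, was counted in every library and spread widely over the clones. Clone O had the highest level, 1287 CPM (interval 1270 to 1305), clone C followed with 1117 CPM and clone P with 650.6 CPM. Clones G, Q, N and K had 283.9, 236.8, 193.7 and 161.2 CPM. The median clone, H, had 65.49 CPM. The lowest clone, L, had 19.38 CPM (17.14 to 21.83), 66.4-fold below clone O. The other clones in falling order were D (68.53 CPM), A (51.67), J (40.02), M (34.13), F (31.82), B (28.22), E (21.37) and I (20.36). In this order the intervals of 10 of 16 neighbouring pairs were apart. The 6 pairs that could not be told apart were D and H, J and M, M and F, F and B, E and I, and I and L. The largest step between neighbours, 2.35-fold, lay between K and D. The standard deviation over clones was 2.02 on the scale of log2(CPM + 0.25), at percentile 99.79 of 11477 genes (those that exceeded 1 CPM in some clone), whose median standard deviation was 0.346 and whose 90th percentile was 0.866.

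**Figure D1:**
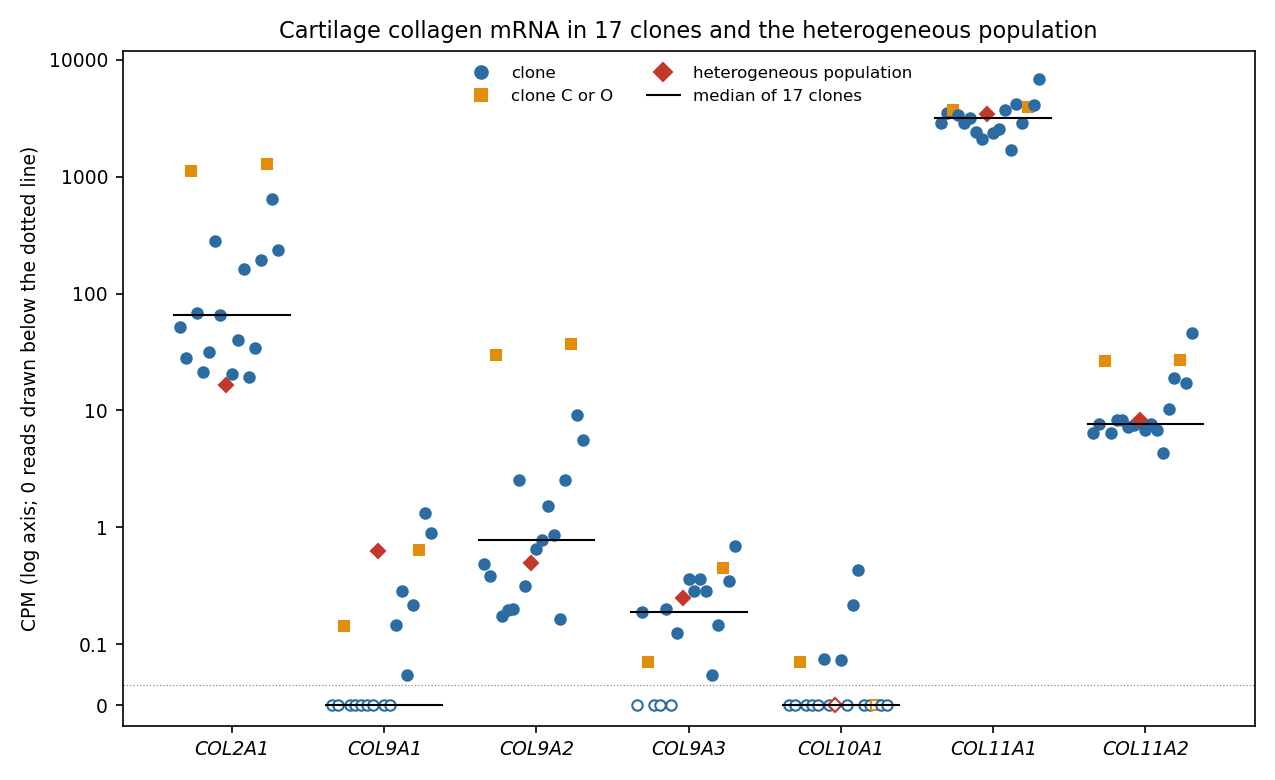
CPM of the 7 cartilage collagen genes (log axis) in 17 clones and the heterogeneous population, with clones C and O as squares, the heterogeneous population as a diamond, clone medians as lines and libraries with 0 reads as open symbols under the dotted line; points of a gene are set side by side in alphabetical order of the library. COL2A1 ran from 19.38 to 1287 CPM and COL9A2 from 0.1625 to 36.88 CPM, whereas COL11A1 stayed between 1682 and 6884 CPM.

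The 3 chains of type IX collagen were counted at very different depths. COL9A2 was the best counted of them. Clone O had 580 reads (36.88 CPM), clone C had 420 (29.72 CPM), clone P had 158 (9.12 CPM) and clone Q had 81 (5.58 CPM). These 4 stood apart from each other and from the rest by their intervals. Clones N, G and K followed with 35, 34 and 21 reads (2.54, 2.53 and 1.52 CPM), and the other 10 clones had 2 to 12 reads, from 0.1625 CPM in clone M to 0.858 CPM in clone L. Among those 10 no neighbouring pair could be told apart by counting error. Clone O was 47.6-fold above the median clone, J (0.775 CPM, 11 reads). The standard deviation of COL9A2 over clones was 2.10, at percentile 99.85, above that of COL2A1, but with 1 CPM added in place of 0.25 it was 1.62 and below the 2.005 of COL2A1. The 7 clones with the most COL2A1 were also the 7 with the most COL9A2, and the order within them differed in the places of G, Q and N. Of the other 10, clone L had the least COL2A1 (19.38 CPM) and the most COL9A2 (12 reads). Clone D had the most COL2A1 of them (68.53 CPM) and 2 reads of COL9A2. Reads of COL2A1 per read of COL9A2 ran from 22.58 in L to 393.5 in D.

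COL9A1 and COL9A3, whose products complete the type IX trimer, had few reads. COL9A1 had 58 reads over all clones, with 23 in clone P, 13 in Q, 10 in O, 4 in L, 3 in N, 2 each in K and C, 1 in M and 0 in the other 9 clones. The highest level was 1.33 CPM in clone P (0.842 to 1.99). This was 5.08-fold or more above a clone with 0 reads, if 0 is taken as 3 reads and the counting error of P is left out. Clone C, second for COL9A2, had a COL9A1 level of 0.0171 to 0.511 CPM by its interval, below that of clone P. COL9A3 had 53 reads over all clones, at most 10 (clone Q), then 7 in O, 6 in P and 5 each in K and I, and it was not read in A, D, E and G. For COL9A1 and for COL9A3, the intervals of all 16 neighbouring pairs overlapped. A spread was not read from COL9A1, because its standard deviation of 0.865 fell to 0.372 when 1 CPM was added in place of 0.25. The span of COL9A3 overlaps that of TCFL5 in the reference table, and since the library kit does not mark strand, reads of such overlapping genes cannot be fully told apart.

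COL10A1, the hypertrophic marker, was close to the limit of detection throughout. Clone L had 6 reads, K had 3, and G, I and C had 1 each, while the other 12 clones and the heterogeneous population had 0. By the limit of 3 reads, a count of 0 left room for a COL10A1 level of up to 0.163 to 0.261 CPM. The gene lies within the span of NT5DC1 in the reference table, so these 12 reads are of uncertain origin. Clone L, which had the most COL10A1 reads, had the least COL2A1, COL11A1 and COL11A2.

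**Figure D2:**
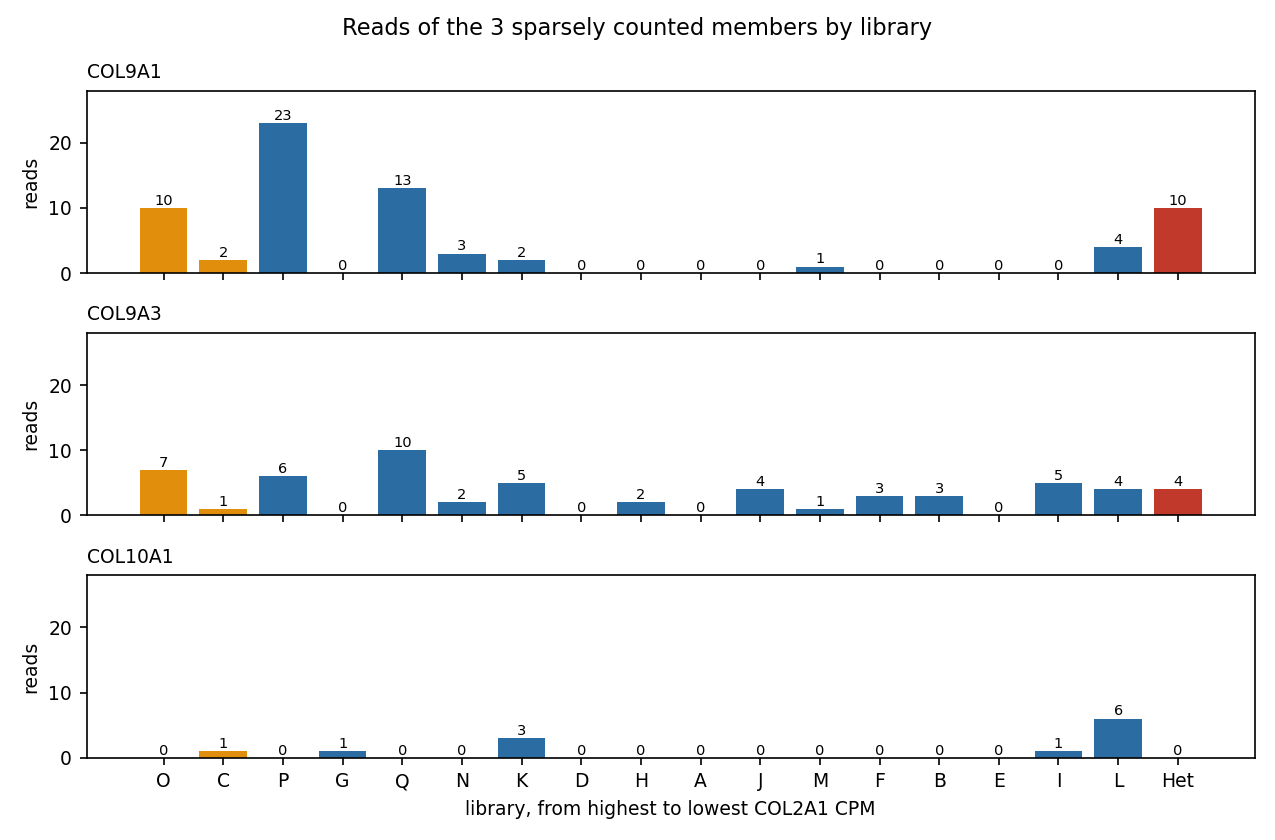
Reads of COL9A1, COL9A3 and COL10A1 in each library (bars from 0, number of reads above each), with libraries from left to right in falling order of COL2A1, clones C and O in orange and the heterogeneous population in red. COL9A1 reads are concentrated in P, Q, O and the heterogeneous population, COL9A3 reads are scattered, and COL10A1 has 6 reads in clone L and 0 to 3 in the others.

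The type XI collagen genes spread less than COL2A1. COL11A1 had 23528 or more reads in every clone. Its level was highest in clone Q (6884 CPM), followed by M (4188), P (4137), O (3965), K (3726), C (3700), B (3505) and D (3402). The median clone, F, had 3203 CPM and the lowest, L, 1682 CPM, 4.09-fold below Q. At this depth 12 of 16 neighbouring pairs were apart by counting error, the exceptions being M and P, K and C, N and A, and A and E. Clones C and O, which led for COL2A1, had 3 or more clones above them here. The standard deviation of COL11A1 over clones was 0.47, at percentile 67.69 of all genes, so that its spread was not unusual.

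COL11A2, the other chain particular to type XI, was also highest in clone Q, at 45.56 CPM (42.16 to 49.17). Clones O and C had 26.83 and 26.53 CPM and were not apart, and N and P had 18.81 and 17.09 CPM and were not apart either. Clone M had 10.29 CPM and was not apart from E. The other 11 clones ran from 8.263 CPM in E to 4.362 CPM in L without any neighbouring pair apart, with the median clone, J, at 7.679 CPM. Its standard deviation was 0.914, at percentile 91.44. COL2A1, COL9A2 and COL11A2 thus lay above the 90th percentile of spread, and COL11A1 did not. The number of COL11A1 reads per COL11A2 read also varied, from 139.4 in clone C, 147.8 in O, 151.1 in Q and 153.4 in N to 551.8 in K, with 417.6 in the heterogeneous population. Clones C and K, whose COL11A1 levels of 3700 and 3726 CPM were not apart by counting error, had 26.53 and 6.751 CPM of COL11A2, with intervals that were.

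To ask which of the other collagens moved with type II collagen, each gene was fitted over the 17 clones with the COL2A1 level as a covariate (edgeR quasi-likelihood test, Benjamini-Hochberg over 11226 genes). The slope is the log2 change of a gene for each doubling of COL2A1. COL9A2 rose with COL2A1 with a slope of 1.09 (SE 0.09, adjusted p = 6.41e-06), the smallest p of all genes tested. This slope is taken over all clones. In those with less COL2A1 than clone K (161.2 CPM), COL9A2 lay between 0.1625 and 0.858 CPM, and clone L, with the least COL2A1, had the most of it. COL11A2 rose with a slope of 0.34 (SE 0.08, adjusted p = 0.0327). COL11A1 had a slope of 0.08 (SE 0.06, adjusted p = 0.412) and did not pass. Thus 2 of the 3 members that passed the filter on low counts were called, where 2.78% of all genes were called in either direction and 1.88% as rising. COL9A1, COL9A3 and COL10A1 were too low for that filter. Without it they had slopes of 0.74 (adjusted p = 0.069), 0.14 (adjusted p = 0.643) and −0.24 (adjusted p = 0.611), and none was called, where 2.11% of genes were called.

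COL9A2 kept its call when C and O were taken as 1 clone (slope 1.04, adjusted p = 0.0001036, where 0.238% of genes were called) and when both were left out (slope 0.90, SE 0.13, adjusted p = 0.0162, where 0.327% were called). COL11A2 kept its slope but not its call in these fits, with slopes of 0.35 and 0.36 and adjusted p = 0.1065 and 0.169. It also missed the threshold without clone B, C, E, F, J, O or P, each left out alone, with adjusted p up to 0.119. The number of genes called over the whole table also moved with single clones. It was 312 of 11226 genes, 211 rising and 101 falling, 27 with C and O as 1 clone, 25 without C, 24 without O and 2046 without L, the clone with the lowest COL2A1. The share rising also moved with the method, with 133 rising and 25 falling in limma and 545 rising and 404 falling in DESeq2.

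**Figure D3:**
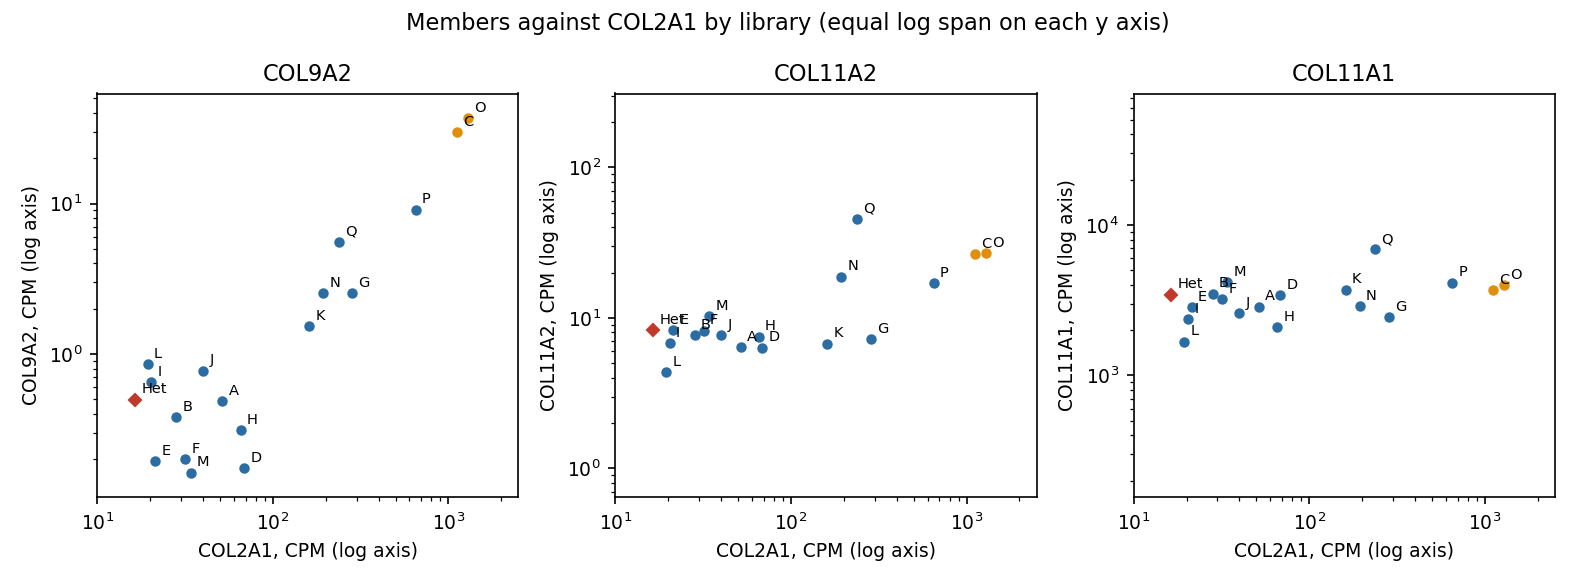
COL9A2, COL11A2 and COL11A1 against COL2A1, in CPM on log axes of equal span, with each library named by its letter, clones C and O in orange and the heterogeneous population (Het) as a red diamond. COL9A2 climbs steeply with COL2A1 from 161.2 CPM of COL2A1 upwards and lies between 0.1625 and 0.858 CPM in those below, COL11A2 climbs less with Q highest, and COL11A1 is nearly flat.

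The slopes of the 3 members were also compared with each other, as the slope of their log2 ratio on COL2A1 over the same clones (3 differences, two-sided permutation test of 100000 resamples). The slope of COL9A2 exceeded that of COL11A2 by 0.62 (SE 0.11, r = 0.826, rho = 0.637, permutation p = 0.0001) and that of COL11A1 by 0.84 (SE 0.12, r = 0.869, rho = 0.699, permutation p = 3e-05). Without clones C and O, which are the 2 farthest from the median of COL2A1, these differences were 0.45 (r = 0.657, permutation p = 0.00799) and 0.62 (r = 0.739, permutation p = 0.00191). COL11A2 exceeded COL11A1 by 0.22 (SE 0.06, r = 0.695, rho = 0.574, permutation p = 0.00261), and without C and O by 0.17 (SE 0.08, r = 0.483, permutation p = 0.0656). The difference between the 2 type XI chains thus fell below 0.05 only with C and O included, and those with COL9A2 did so either way.

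Pairs of members were then compared by Pearson correlation of log2(CPM + 0.25) over the 17 clones, for the 5 members with a CPM above 1 in some clone (10 pairs). Each member in turn was the anchor, set against all 11476 other genes, and the permutation p was adjusted over those genes, so that each pair has 2 adjusted values. All 10 correlations were positive, but the share of positive values over all genes was not counted beside this. With TMM-scaled CPM (the library scaling of the fits) all 10 were lower and still positive. The r of COL11A1 was then 0.382 with COL2A1, 0.403 with COL9A1 and 0.270 with COL9A2, against 0.480, 0.529 and 0.401. Of the 20 tests 5 were called, in 4 pairs, and COL2A1 with COL9A2 was the only pair called from both anchors. Its r was 0.917 (rho = 0.708, permutation p = 1e-05, the smallest the resamples could give), with adjusted p = 0.0153 from COL2A1, where 0.584% of genes were called, and 0.00696 from COL9A2, where 11.3% were. Without O and C, the 2 clones farthest from the median of either gene, r was 0.843 (permutation p = 0.00011), with adjusted p = 0.273 from COL2A1 and 0.0428 from COL9A2. With C and O as 1 clone r was 0.894, with adjusted p = 0.0574 and 0.0255 by permutation.

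The type IX pair that could be compared, COL9A1 and COL9A2, had r = 0.713 (rho = 0.701, permutation p = 0.00303). It was called from COL9A2 (adjusted p = 0.0383) but not from COL9A1 (adjusted p = 0.0801), where 0.81% of genes were called. With a larger constant of 1 CPM added before logs, r was 0.654 and the pair was called from neither anchor. The adjusted permutation p was then 0.0704 from COL9A2 and 0.133 from COL9A1. COL9A1 had 0 reads in 9 clones and exceeded 1 CPM in clone P only, so the call depended on the constant added. Without P and Q, the clones farthest in COL9A1, r was 0.730 (permutation p = 0.00683), and without O and C it was 0.835. COL9A2 and COL11A2 had r = 0.768 (rho = 0.466, permutation p = 0.00088). This pair was called from COL9A2 (adjusted p = 0.0254), where 11.3% of genes were called, but not from COL11A2 (adjusted p = 0.0715), where 0.392% were. Without O and C its r was 0.647 (permutation p = 0.00966). COL11A1 and COL11A2, the chains of one trimer, had r = 0.742 (rho = 0.615, permutation p = 0.00029). They were called from COL11A1 (adjusted p = 0.0482), where 0.627% of genes were called, but not from COL11A2 (adjusted p = 0.0574). From COL11A1 the pair missed the threshold in 14 of 17 fits that left out 1 clone, and without Q and L, the extremes of COL11A1, r was 0.493 (permutation p = 0.063). It also missed the threshold from COL11A1 with TMM-scaled CPM (r = 0.701, adjusted p = 0.0853 by permutation).

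COL2A1 had r = 0.738 with COL11A2 (rho = 0.527, permutation p = 0.00109), 0.635 with COL9A1 (rho = 0.502, permutation p = 0.00636) and 0.480 with COL11A1 (rho = 0.522, permutation p = 0.0504), and none of these 3 pairs was called from either anchor (smallest adjusted p = 0.0776, 0.102 and 0.237). Without O and C the values of r were 0.595, 0.650 and 0.457. The lowest r of all 10 pairs was 0.401, between COL9A2 and COL11A1 (permutation p = 0.113). Before adjustment, 7 of 10 pairs had a permutation p under 0.05 by both r and rho. The share of all genes that did so was not counted, so this number has no background beside it. Many genes come near that level, since COL11A1, at permutation p = 0.0504 with COL2A1, was in place 1844 of 11476 genes by r. With Spearman's rho 2 of the 20 tests were called, both from COL9A2 (with COL2A1 and with COL9A1). From that anchor 1668 of 11476 genes were called by rho, and COL2A1 and COL9A1 were in places 659 and 747. Without the 2 farthest clones, or with C and O as 1 clone, 1 of 20 was called, COL2A1 from COL9A2, where 79 and 113 of 11476 genes were.

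The genes closest to each member by r were listed as a description. Besides COL9A2, COL2A1 was closest to RAB11FIP4, a RAB11 effector of endosome recycling (r = 0.920), and HYAL2, a hyaluronidase (r = 0.894). COL9A2 was closest to CHST12, a chondroitin 4-O-sulfotransferase (r = 0.953), RAB11FIP4 (r = 0.935) and HS3ST3A1, a heparan sulfate sulfotransferase (r = 0.925). COL9A1 was closest to RAPGEFL1, the transcription factor TCF4 and the GATA cofactor ZFPM2 (r = 0.879, 0.865 and 0.864). COL11A1 was closest to the membrane metalloproteinase MMP15 (r = 0.822), CCDC80 (r = 0.817) and PLOD1, a lysyl hydroxylase of collagen (r = 0.803). COL11A2 was closest to PRICKLE2, of planar cell polarity (r = 0.902), the transcription factor GATA4 (r = 0.881) and PDK1, a pyruvate dehydrogenase kinase (r = 0.862). All were taken over 17 clones that share their donor and include the like clones C and O. From COL2A1, 0 genes were called with C and O as 1 clone or with both left out.

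Other cartilage genes were read in the same fit on COL2A1. Of 7 cartilage transcription factors and their cofactors that were tested, 3 rose and none fell. They were WWP2, the ubiquitin ligase gene that hosts miR-140 (slope 0.28, SE 0.04, adjusted p = 0.00177), SOX6, which with SOX5 assists SOX9 (slope 0.26, SE 0.07, adjusted p = 0.0471), and ARID5A, a SOX9 partner (slope 0.19, SE 0.05, adjusted p = 0.0404). SOX9, the factor that switches on COL2A1, COL9 and COL11 genes, had a slope of 0.26 (SE 0.09, adjusted p = 0.107) and SOX5 one of 0.12 (adjusted p = 0.326). SOX9 ran from 2.546 CPM in clone M to 24.16 CPM in clone O, with N (24.11) and L (21.31 CPM) next, and L was the clone with the least COL2A1. WWP2 was called with C and O as 1 clone too, but not with both left out, and SOX6 and ARID5A were called in neither fit.

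Of 12 cartilage matrix genes other than collagens, 2 rose and all 12 had a positive slope, with a median of 0.47 against 0.001 over all genes. Aggrecan (ACAN), the main proteoglycan of cartilage, had a slope of 0.81 (SE 0.19, adjusted p = 0.0364), and MIA, a secreted protein of chondrocytes, one of 0.44 (SE 0.11, adjusted p = 0.0400). ACAN was highest in clone N (3032 CPM), which was sixth for COL2A1, followed by O (1437), Q (1348), C (1253) and P (762.5 CPM). Neither was called with C and O as 1 clone or left out. With both left out, CILP, an intermediate layer protein, and PRG4, lubricin of the articular surface, were called, and the median slope was 0.61. None of 10 hypertrophic and growth plate genes passed (median slope −0.07).

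Among the 8 other fibrillar collagens, COL27A1, also a cartilage fibril collagen, rose (slope 0.20, SE 0.05, adjusted p = 0.0460). COL1A1 and COL1A2, the type I chains, had slopes of −0.17 (adjusted p = 0.204) and −0.16 (adjusted p = 0.176), and COL3A1 had −0.29 (adjusted p = 0.108), so none of these passed. Of 25 genes for folding, modifying and crosslinking collagen, 3 rose. They were LEPREL1, a prolyl 3-hydroxylase (slope 0.28), COLGALT1, which adds galactose to hydroxylysine (slope 0.18), and CREB3L2, a transcription factor of the secretory pathway (slope 0.13), and the median slope of the list was −0.01. Its prolyl 4-hydroxylases P4HA1, P4HA2 and P4HA3 did not pass (slopes −0.07, −0.03 and 0.21). None of 6 collagen receptors passed. None of these calls held with C and O as 1 clone.

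**Figure D4:**
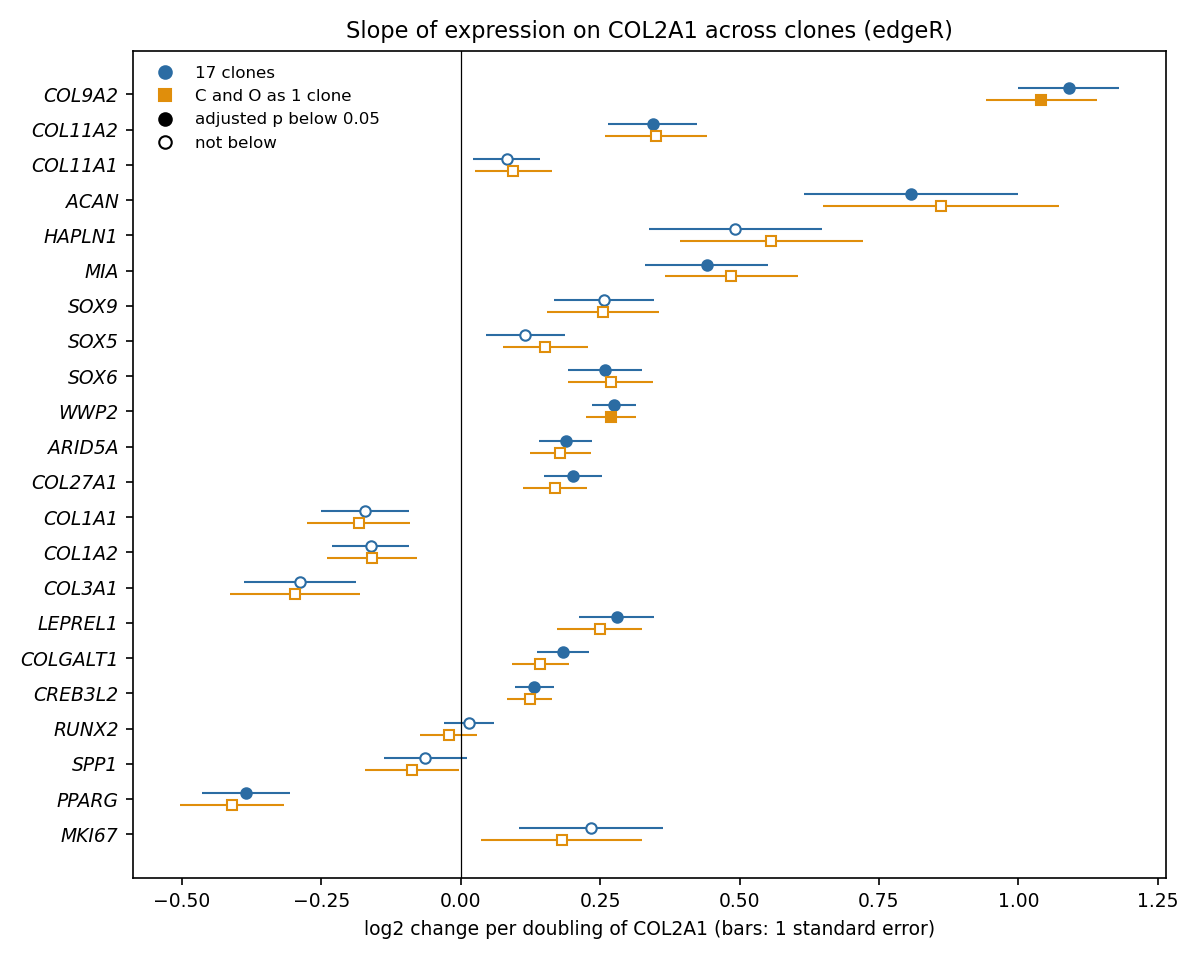
Slope on COL2A1 (log2 change per doubling of COL2A1, bars 1 SE) for 3 members and 19 listed genes, over 17 clones (circles) and with C and O as 1 clone (squares), filled where the adjusted p over all genes tested is below 0.05. COL9A2 has the highest slope of those drawn, and COL9A2 and WWP2 are the only ones filled in both fits.

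Markers of other lineages were counted in the same fit. No marker of MSCs (9 tested), osteoblasts (5), macrophages (2) or endothelial cells (3) passed, and of 5 adipocyte markers PPARG, the adipogenic nuclear receptor, fell (slope −0.39, SE 0.08, adjusted p = 0.0217), but it was not called with C and O as 1 clone (adjusted p = 0.0796) or without both (adjusted p = 0.0790). None of 10 proliferation genes passed, although all 10 had a positive slope (median 0.23). Their summed level was highest in L (1859 CPM), the clone with the least COL2A1, against a median clone of 271.9 CPM. It was 1819 CPM in O, 1598 CPM in C and 1560 CPM in G, which held places 1, 2 and 4 for COL2A1. Without C and O, 7 of 10 were positive with a median slope of 0.04. The part of proliferation in the levels of COL2A1 and COL9A2 was not tested. Among all genes called with a mean of at least 1 CPM, the largest rising slopes were those of GFAP, an intermediate filament gene (1.32), GATA4 (1.30), COL9A2, CA9, a carbonic anhydrase (1.03) and MOXD1 (1.01). Falling slopes included those of TFPI2 (−0.46), DRAM1 (−0.44), TMEM92 (−0.43) and CASP4 (−0.40). The 101 falling calls became 1 with C and O as 1 clone and 0 without both, and the 211 rising calls 26 and 37.

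Each clone was compared with the other 16 to ask whether any stood beyond their spread for a member (edgeR, 5 members in 17 fits). None of the 85 tests passed after adjustment over all genes, where 0.046% of all gene and clone tests were called. DESeq2 and limma called no member either. Picked by their unadjusted p, 5 log2 differences are given as sizes only. They were COL11A2 in Q (2.02, SE 0.61), COL11A1 in Q (1.10, SE 0.38), COL11A1 in L (−1.25, SE 0.51), COL9A2 in O (3.39, SE 1.47) and COL9A1 in P (3.09, SE 1.31). Each fit has 1 library on a side and no share of all genes was set beside these 5, so they mark no clone. The filter on low counts in these fits can also be passed by 1 library. COL9A1, with 23 reads in P and 13 in Q, entered them through clones where it was high. In the comparison of O with the rest, clone C is among the others. Without C, COL9A2 in O was 4.40 (SE 1.06, adjusted p = 0.120) and COL2A1 was 3.32 (SE 1.09, adjusted p = 0.276), where 0.204% of genes were called. With C and O as 1 clone they were 4.29 (adjusted p = 0.147) and 3.24 (adjusted p = 0.364), where 0.221% were.

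The heterogeneous population lay below all 17 clones for COL2A1, with 264 reads or 16.41 CPM (14.49 to 18.51), and of the clones only L and I had intervals that overlapped its own. For COL9A2 it had 8 reads (0.497 CPM), with 10 clones above and 7 below. It had 10 reads of COL9A1, a number matched or passed in O, Q and P, and 4 of COL9A3. COL11A1 (3451 CPM) and COL11A2 (8.265 CPM) lay within the range of the clones. Against the clones as a group, COL2A1 differed by −3.81 on the log2 scale (SE 2.71, adjusted p = 0.751), COL11A1 by 0.13 (SE 0.50, adjusted p = 0.961) and COL11A2 by −0.56 (SE 0.99, adjusted p = 0.908), by edgeR. None of these 3 was called, where 0.0386% of 10351 genes were, nor at an unadjusted p under 0.05, and limma gave the same counts, while DESeq2 made 0 calls with COL2A1 alone below that level (unadjusted p = 0.0416). Without a filter on low counts COL9A1 (1.56), COL9A2 (−3.29), COL9A3 (0.33) and COL10A1 (−2.73) were not called either, where 1.41% of genes were. This library is 1 sample, and the fit gives it the variation of the clones. Its 10 macrophage markers summed to 151.7 CPM, against 1.192 to 6.62 CPM in the clones, and its proliferation genes to 79.6 CPM, below every clone, and the part of either in the COL2A1 level was not tested.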

How the data were processed

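The authors sequenced poly-adenylated RNA of 17 clones and 1 heterogeneous population taken in monolayer, aligned the reads to bosTau7 with STAR 2.3.0e and ran HTSeq over RefSeq genes. The deposited values are raw counts, whole numbers per gene and library. A table of the whole series held the same counts (0 of 305802 values differed). The 5 tally lines of each library stayed out of all totals, and reads on no gene came to 18.78% to 26.81%. The study's own measure was FPKM, and its pellet assay was not used here. The members and gene lists were chosen with earlier results of these data known.

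CPM was taken by the total of reads on genes, with 0.25 CPM added before logs. Fits used edgeR 4.0.16 with TMM scaling, the filterByExpr filter, its quasi-likelihood test (glmQLFit, glmQLFTest) and Benjamini-Hochberg adjustment at 0.05. Alternatives were DESeq2 1.42.0, limma 3.58.1, other scalings, filters, pseudocounts and left-out clones. The standard error of a log2 value is its size divided by the square root of F. Correlations were limited to genes that passed 1 CPM in some clone. Intervals are exact Poisson intervals. The fits and the permutation test were tested on simulated data. Named genes are the 7 members, listed genes that passed or have a stated role, the 3 nearest genes to each member by r and the 5 steepest called slopes in each direction with a mean of at least 1 CPM, without LOC symbols. One gene that this rule names is not reported here. All 7 members matched the ARS-UCD2.0 RefSeq gene table, which was used only for overlaps, since it is not the build of the counts, so no coordinates are given.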

Additional observations from a re-analysis of the deposited data

How the results depend on the processing

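Of 636 single gene or pair values recomputed under an alternative, 581 kept their direction and side of the threshold or moved by less than the spread, 50 lost their call, 5 gained one and 0 reversed. Most of the 636 belong to tests that were not called in the main setting and so had no call to lose. Called there were 5 of 20 correlation tests and 2 of 3 member slopes, and no member against the heterogeneous population. Each pair also counts from both anchors, so the 581 do not measure how stable the calls were. The number of genes with a slope on COL2A1, 312, was 949 with DESeq2's Wald test, 158 with limma, 174 with a TMM-scaled covariate, 27 with C and O as 1 clone and 37 without both (an alternative chosen after seeing the data). It ran from 24 to 2046 over fits leaving out 1 clone, and passed 1.5 times in either direction without B (97), C (25), E (124), F (108), H (177), J (154), K (498), L (2046), M (176), O (24) or P (110). COL9A2 was called in all of these fits (slopes 1.03 to 1.18 with 1 clone left out) and COL11A1 in none. The 5 calls in 20 correlation tests of members (10 pairs, each from 2 anchors) became 2 with Spearman's rho, 1 without the 2 farthest clones and 1 with C and O as 1 clone (the last chosen after seeing the data), and 1 to 7 with 1 clone left out (1 without O, 2 without C, 3 without B, E, F, M or P). The 4 genes called between the heterogeneous population and the clones became 204 without a filter, 146 with a filter that 1 library can pass (chosen after seeing the data) and 12 with DESeq2, and 3 to 5 with 1 clone left out. The 92 calls of single clones against the others, none of them a member, became 416 with DESeq2 and 54 with limma. The causes were not tested. The slope differences between members were also chosen after seeing the data. COL9A1, COL9A3 and COL10A1 are limited by depth, at 58, 53 and 12 reads over all clones. No paired analysis was possible because the clones carry letters only and the heterogeneous population is 1 library.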
